A study of Oryza sativa with 6 samples.

Results

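The genes described here encode the heat shock proteins and heat stress factors of rice. They were chosen by name alone: a gene was a member when its symbol or a synonym in a current rice gene table starts with HSP or HSF and a digit, or is HSFA, HSFB or HSFC with a number and a letter. The rule found 49 genes, 22 of them small heat shock protein (small HSP) genes, 3 HSP81/90 genes, 1 HSP101 gene and 23 heat stress factor genes. No gene was named HSP70 or HSP40 to HSP60 in this table (0 members), so those classes are not described. Of the 49 members, 43 had a probe set annotated to that gene alone, among 17905 such genes on the array.

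Heat shock proteins are molecular chaperones, which hold or refold proteins that lose their shape. Small HSPs bind unfolding proteins and keep them from clumping, HSP90 proteins (named HSP81 in rice) finish the folding of receptors, kinases and other signalling proteins, and HSP101, a ClpB protein, pulls proteins out of aggregates. Heat stress factors (HSFs) are the transcription factors that switch these genes on. Class A factors activate transcription, most class B factors lack the activation motif and many repress, and class C factors are known only from plants. The genes are best known for their rise in hot leaves, but some are used in development, most of all in seeds and pollen.

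Leaves 3 and 4, by position from the flag leaf, of rice var. PB1 gave the RNA, and 1 Affymetrix array was hybridized for each of 3 wild-type (WT) and 3 MADS29OX samples. MADS29OX plants overexpress *OsMADS29*, a MADS-box gene normally active in seeds, from a ubiquitin promoter that is active in most tissues. They were stunted, had small thin leaves, flowered early and set no seed, whereas the WT plants were not transformed. No heat treatment is described for either group, and the sources do not say how many transformed lines the 3 samples stand for or whether the leaves were of one age in days, so the p-values measure the spread between these samples.

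Each deposited value is the linear intensity of a probe set. Values below 16 were raised to 16 (the floor), log2 was taken, and limma was run on every probe set above the floor on at least 1 array. A gene was called higher or lower when its Benjamini-Hochberg adjusted p did not exceed 0.05 and the change reached 2-fold. The *OsMADS29* signals of 6.70, 6.37 and 6.64 in WT and 2016, 1788 and 3590 in MADS29OX leaves followed the labels (at least 7.20 higher on the log2 scale, limma adjusted p = 0.000139). Of the markers looked at, 5 of 5 leaf genes were above the floor in both groups, while 0 of 2 root and 0 of 2 anther genes were. The leaf genes did not move together: *CAB2R* was 2.76-fold and *FBA* 2.17-fold higher, *PSAG* was 2.07-fold lower, and *RCA* and *RBCS* were not called. Their summed signals were 20930 to 21140 in WT and 22130 to 28750 in MADS29OX leaves. *RCA* had the largest signal on each array, with means of 12720 in WT and 10560 in MADS29OX leaves. The higher sums came with *CAB2R*, at means of 2525 and 7073, and on MADS29OX replicate 2 also with *RBCS*, at 8615. Of 7 seed genes, 2 were above the floor in WT and 3 in MADS29OX leaves, with sums of 259.8 to 266 and 517 to 1089. The higher sum came from *LEA3*, a gene of late embryos and drought, at 5.93, 6.16 and 5.79 in WT and 850.2, 297 and 466 in MADS29OX leaves. *GLB1* and *GLUA2* were not called (log2 fold changes of -0.25 and -0.32), and the glutelin gene *GLUA1*, the prolamin gene *RP5* and the allergen gene *RAG1* were below the floor on all arrays. What part these differences have in the members' values was not tested. Among probe sets averaging more than 32, log2 values had a median SD of 0.253 in MADS29OX and 0.0817 in WT leaves, against 0.447 and 0.0853 for the 15 members of that brightness. In whole leaves, fewer cells of a type and less RNA per cell cannot be told apart.

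Of the 43 members on the array, 23 were above the floor on at least 1 array and were tested, and 20 were below it on all 6 arrays. In MADS29OX leaves 2 members were higher, the small HSP gene *HSP18.8* and the factor gene *HSFA2C*, and 2 were lower, the small HSP gene *HSP18.6* and the factor gene *HSFC2A*. That is 4 of 23 tested, where 10.1% of all tested genes were called. Of all tested genes 5.05% were higher and 5.03% lower. Without the fold limit 6 members passed the adjusted p, against 26.6% of all tested genes. The 2 groups of arrays did not overlap for 11 of the 23, against 45.9% of all tested genes. With 23 genes, nothing particular to the list is read from these shares. Of the 23, 18 had a log2 fold change below 0 and 5 above, where 5158 of all 10045 tested genes lay below 0. Some of the 18 were near 0, such as *HSP18.0* at -0.01. The median over the 23 was -0.34, and that over all tested genes was -0.01. The members' median was -0.19 without MADS29OX replicate 3, -0.48 without replicate 1 and -0.03 on log2 of the value plus 16. By class the median was -0.36 for the 7 tested small HSP genes, -0.46 for the 3 HSP81/90 genes and -0.18 for the 12 tested factor genes.

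**Figure D1:**
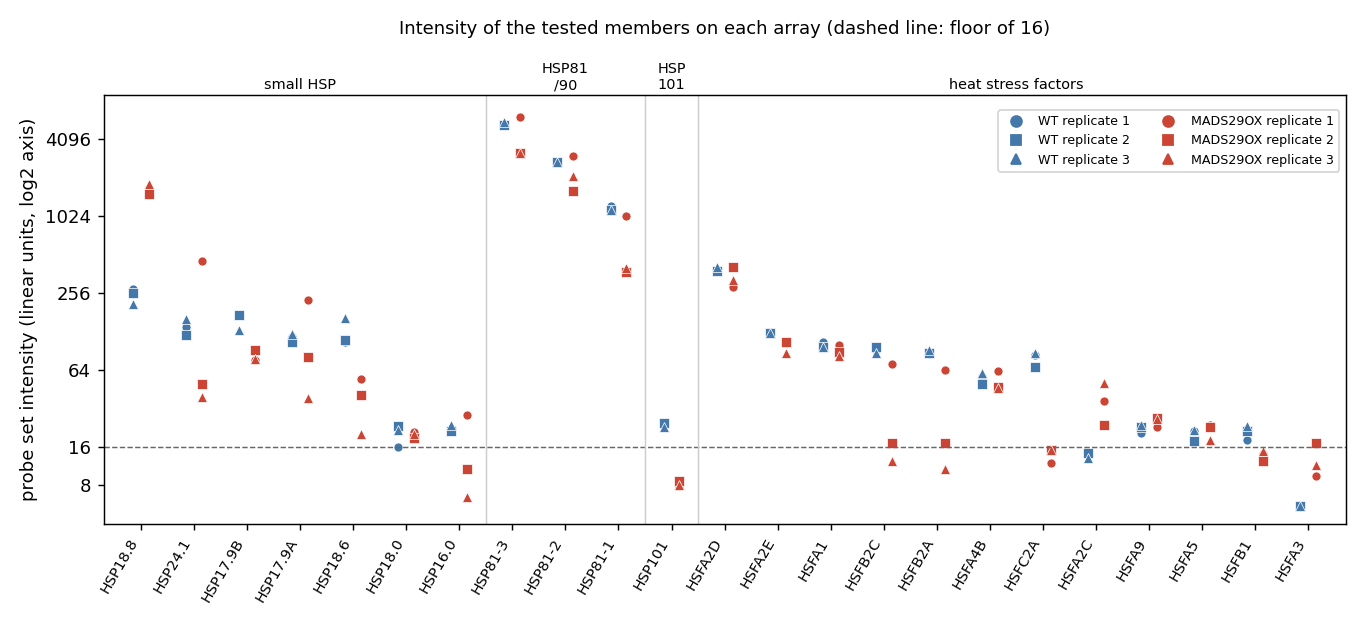
Intensity of the 23 tested members on each array, on a log2 axis, with WT in blue, MADS29OX in red and a symbol for each replicate. The signals of *HSP18.8* lie between 210 and 276 in WT and between 1526 and 1826 in MADS29OX leaves, and several other members have 1 MADS29OX array far above the other 2. Heights of different genes come from different probe sets and are not comparable.

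Among the small HSP genes, *HSP18.8* (LOC4343386) gave 276, 256 and 210 in WT and 1668, 1526 and 1826 on the MADS29OX arrays. The groups were far apart and all 3 arrays of each lay close together. The gene rose 6.78-fold, or by 2.76 on the log2 scale (standard error, SE, 0.13, limma adjusted p = 0.000206). This call held under each alternative that kept its probe set, with log2 fold changes from 2.65 to 2.85. The gene has a single probe set of its own, of a type that can also bind related transcripts, so leaving out such probe sets left the gene without a value.

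*HSP18.6* (LOC4330933) went the other way. Its signals were 106, 109.8 and 163 in WT and 54.0, 40.5 and 20.0 in MADS29OX leaves, again without overlap, but the MADS29OX arrays spread 2.70-fold. The log2 fold change was -1.81 (SE 0.39, limma adjusted p = 0.0218). A further probe set of the gene, of the type designed for 1 transcript, gave 72.2, 78.4 and 103 in WT and 31.0, 23.3 and 9.22 in MADS29OX leaves. Its log2 fold change was -1.89 (SE 0.27, limma adjusted p = 0.00557), so both of these probe sets were lower. They carry the same target number and may not be independent. The gene's remaining probe set was below the floor on all 6 arrays and gave no fold. The call on the first probe set did not survive leaving out any 1 WT array (limma adjusted p from 0.0647 to 0.0850), with log2 fold changes from -1.92 to -1.62.

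*HSP17.9B* (LOC4325695) was the other small HSP gene that passed the adjusted p. Its signals of 172, 172 and 130 in WT and 76.6, 92.2 and 77.9 in MADS29OX leaves did not overlap. The log2 fold change of -0.94 (SE 0.15, limma adjusted p = 0.00762) was just short of the 2-fold limit. It passed that limit when WT replicate 3 or MADS29OX replicate 2 was left out, with -1.07 and -1.02.

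The small HSP genes *HSP24.1* and *HSP17.9A* were not called, and their MADS29OX arrays disagreed. *HSP24.1* (LOC4330786) had 139, 119 and 160 in WT and 452, 49.6 and 39.5 in MADS29OX leaves. Replicate 1 lay above every WT array and replicates 2 and 3 below every one. *HSP17.9A* (LOC4332357) had 115, 105.5 and 121 in WT and 224, 80.6 and 38.7 in MADS29OX leaves, in the same order. Their log2 fold changes of -0.53 and -0.36 had 95% intervals from -2.82 to 1.77 and from -1.86 to 1.15, which leave the direction unsettled for both genes. *HSP16.0* had 22.0, 21.4 and 23.7 in WT and 28.6, 10.8 and 6.49 in MADS29OX leaves, with a log2 fold change of -0.20 (95% interval from -0.80 to 0.39). *HSP18.0*, at 16.04, 23.3 and 21.8 in WT and 20.8, 18.84 and 20.3 in MADS29OX leaves, had -0.01 and a 95% interval from -0.39 to 0.37, within 2-fold on this floored scale. Its other tested probe set, which reached only 16.2, had a log2 fold change of -0.005.

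The remaining 12 small HSP genes with a probe set, *HSP26.2*, *HSP17.7*, *HSP18.1*, *HSP22.3*, *HSP17.4*, *HSP21.9*, *HSP23.2*, *HSP26.7*, *HSP16.9A*, *HSP16.9B*, *HSP16.6* and *HSP17.8*, were below the floor on all arrays of both groups. *HSP16.9C*, *HSP18.9* and *HSP19.0* had no probe set of their own. Small HSP genes lie side by side in 2 places of the gene table. In a run of 5 neighbours, from *HSP16.6* to *HSP16.9B*, 4 had a probe set and 1, *HSP17.9B*, was above the floor. In the run *HSP17.4*, *HSP18.1* and *HSP17.7*, 0 of 3 were. Such neighbours are often close copies, and probe sets may then not keep them apart. The highest signal of any member in the undetected set was 14.8, and no fold is given for these genes.

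**Figure D2:**
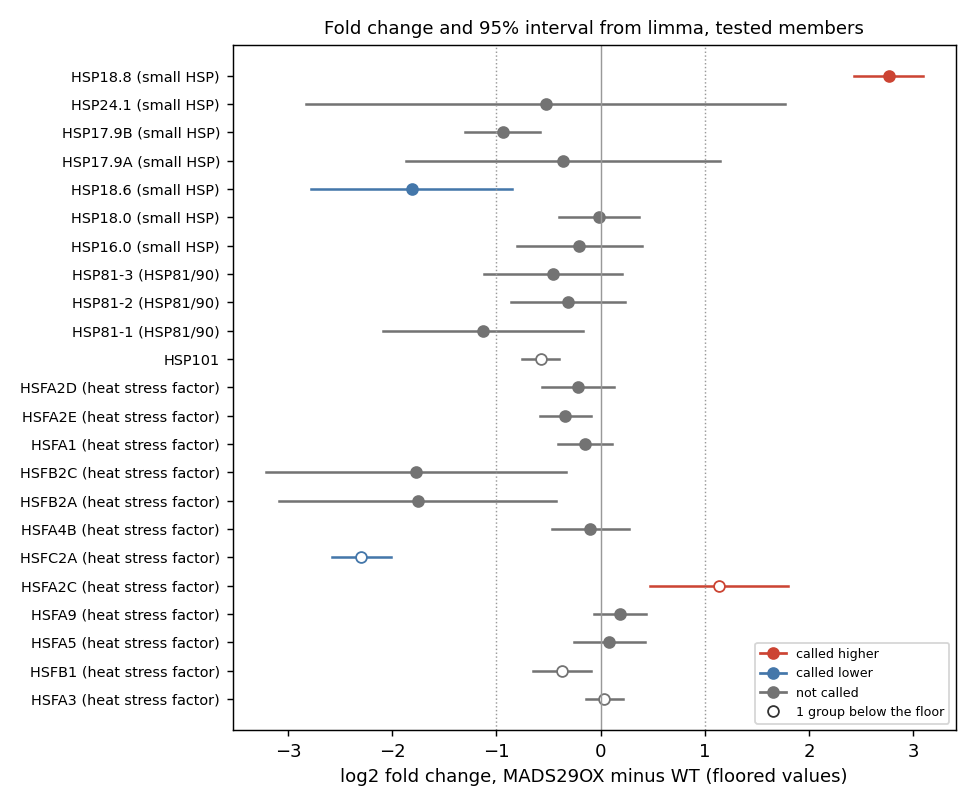
Log2 fold change (MADS29OX minus WT, values floored at 16) and 95% interval from limma for the 23 tested members, with called members in colour and open symbols where 1 group was below the floor on all arrays. *HSP18.8* stands at 2.76, *HSFC2A* at -2.30 and *HSP18.6* at -1.81, and the widest interval, that of *HSP24.1*, runs from -2.82 to 1.77.

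The HSP81/90 genes had strong signals and no call. *HSP81-1* (LOC4345951) had 1225, 1133 and 1148 in WT and 1019, 373 and 403 in MADS29OX leaves. The groups did not overlap, but replicate 1 lay 2.73-fold and 2.53-fold above replicates 2 and 3. The log2 fold change of -1.13 (SE 0.39) did not pass (adjusted p = 0.0879 from limma). *HSP81-2* had 2702, 2680 and 2678 in WT and 2990, 1612 and 2105 in MADS29OX leaves, and *HSP81-3* had 5316, 5287 and 5578 in WT and 6078, 3160 and 3156 in MADS29OX leaves. In both genes replicate 1 was above all WT arrays and replicates 2 and 3 were below all of them. Their log2 fold changes were -0.31 (95% interval from -0.86 to 0.24) and -0.46 (95% interval from -1.12 to 0.20). *HSP81-2* and *HSP81-3* lie with 2 coding genes between them and have 2 further probe sets annotated to both, which were not used, so their signals may not be independent. Of the other *HSP81-3* probe sets, 2 were above the floor and had log2 fold changes of -0.42 and -0.47, and the rest were below the floor on all arrays. The *HSP81-3* probe set used and the one at -0.42 are of a type that can also bind related transcripts. How much of the signal is from *HSP81-3* itself is therefore not known.

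*HSP101* (LOC4339343) had weak signals of 24.3, 24.4 and 22.9 in WT and 7.96, 8.70 and 7.98 in MADS29OX leaves, all 3 of the latter below the floor. Its arrays agreed closely in both groups. The gene was at least 1.49-fold lower (log2 fold change -0.58 ± 0.07 SE, limma adjusted p = 0.00338), which passed the adjusted p but not the fold limit. That SE takes no spread from the MADS29OX arrays, which were all raised to the floor. With no floor the log2 fold change was -1.54 (adjusted p = 0.000211 from limma) and the gene was called, on signals that reach only 24.4 at most.

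Of the 20 heat stress factor genes on the array, 12 were tested. *HSFC2A* (also *HSF05*, LOC4328809), a class C factor, had 83.3, 67.3 and 86.7 in WT and 11.9, 15.2 and 15.1 in MADS29OX leaves, all below the floor. It was at least 4.91-fold lower (log2 fold change -2.30 ± 0.11 SE, limma adjusted p = 0.000244) and was called under all 18 alternatives. All MADS29OX values were raised to the floor, so the fit saw no spread in that group. Leaving out a MADS29OX array therefore could not move the fold change. With no floor the log2 fold change was -2.49 (SE 0.16, limma adjusted p = 0.000162). The other 2 class C genes with a probe set, *HSFC1A* and *HSFC1B*, were below the floor on all arrays.

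Class B was represented by *HSFB2A*, *HSFB2C* and *HSFB1*, and all 3 had non-overlapping groups with MADS29OX below WT, where 45.9% of all tested genes did not overlap in either direction, and none of the 3 was called. In Arabidopsis, factors of the B2 type act as repressors. *HSFB2A* (LOC4336701) had 84.5, 86.8 and 91.3 in WT and 63.7, 17.2 and 10.7 in MADS29OX leaves. *HSFB2C* (LOC4347637) had 91.2, 97.3 and 87.2 in WT and 71.3, 17.0 and 12.4. The WT arrays were tight in both, and on these probe sets replicate 1 of MADS29OX stayed nearer to WT while replicates 2 and 3 lay near or below the floor. The log2 fold changes were -1.75 (SE 0.54, limma adjusted p = 0.0630) and -1.77 (SE 0.59, limma adjusted p = 0.0769). A second *HSFB2C* probe set had 51.3, 61.5 and 65.0 in WT and 15.6, 7.27 and 7.85 in MADS29OX leaves, and on that probe set the gene was lower (log2 fold change -1.88 ± 0.11 SE, limma adjusted p = 0.000336). There replicate 1 was below the floor like replicates 2 and 3, so the SE takes no spread from the MADS29OX arrays. The dimmest tested *HSFB2C* probe set had a log2 fold change of -0.44 (limma adjusted p = 0.0741) and the second of *HSFB2A* had -0.47 (limma adjusted p = 0.0620). *HSFB1* had 18.0, 21.1 and 23.4 in WT and lay below the floor in MADS29OX leaves (at least 1.29-fold lower, adjusted p = 0.0610 from limma). *HSFB2B* and *HSFB4B* were below the floor on all arrays.

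Class A had 8 tested genes, with a median log2 fold change of -0.03. *HSFA2C* (also *HSF6*, LOC4348646) had 14.1, 14.3 and 13.0 in WT, below the floor, and 36.3, 23.8 and 50.6 in MADS29OX leaves. It was at least 2.20-fold higher (log2 fold change 1.14 ± 0.27 SE, limma adjusted p = 0.0285). The gene's second probe set pointed the other way, with 25.4, 21.9 and 30.5 in WT and 16.9, 7.81 and 7.96 in MADS29OX leaves (-0.65 ± 0.13 SE, limma adjusted p = 0.0186), and the mean of both gave 0.24 (adjusted p = 0.311 from limma). In the gene table this gene also carries *ARD1* and *IDI1*, names of an acireductone dioxygenase, an enzyme of methionine recycling, and the annotation does not say which transcript each probe set measures. The higher call is therefore not settled as one of a heat stress factor. Leaving out any 1 WT array also ended the call (limma adjusted p from 0.0963 to 0.0981). The log2 fold change of 1.14 could not move there, since all WT values were raised to the floor. Leaving out MADS29OX replicate 1 (1.12, limma adjusted p = 0.0617) or replicate 3 (0.88) ended the call too.

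*HSFA2D* has the same difficulty, since its synonyms include *ARD2*. Its brighter probe set had 382, 381 and 406 in WT and 287, 405 and 324 in MADS29OX leaves (-0.22, 95% interval from -0.56 to 0.13), while the other had 154, 139 and 173 in WT and 78.3, 85.6 and 16.3 in MADS29OX leaves (-1.69 ± 0.65 SE, limma adjusted p = 0.113). The groups overlapped on the first and not on the second, and neither was called.

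**Figure D3:**
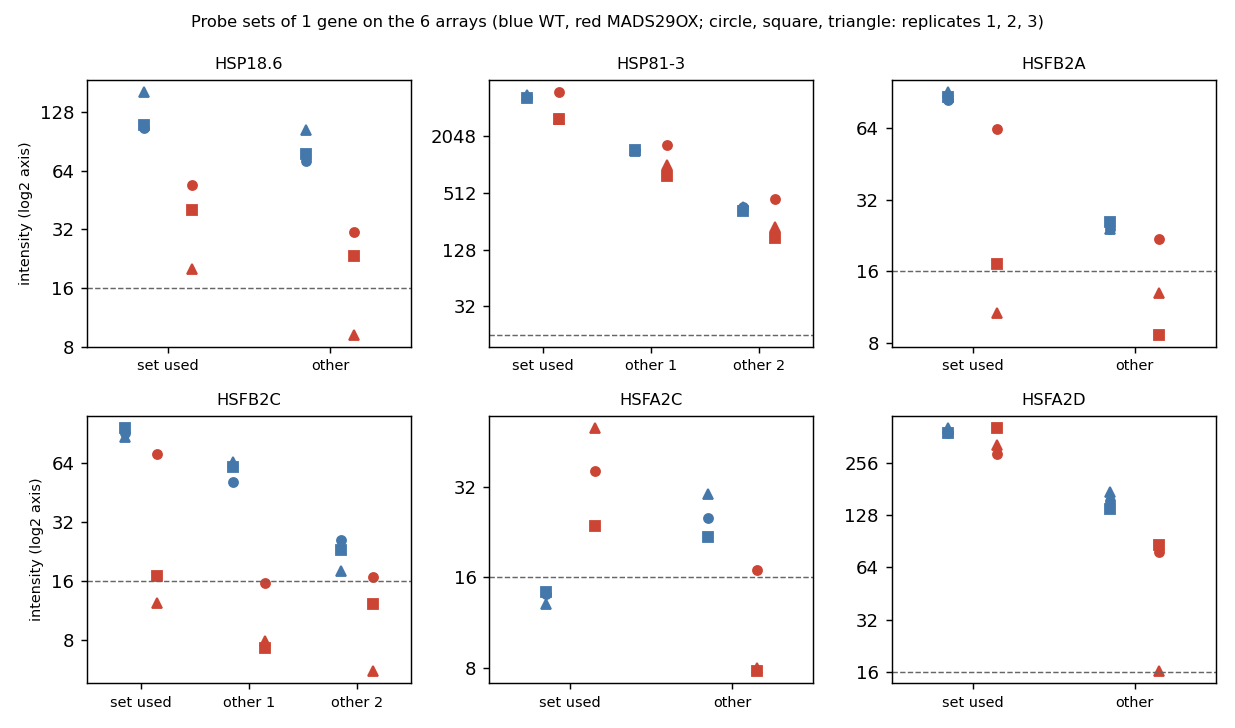
Intensity on each array for the tested probe sets of 6 of the 7 members with more than 1 tested probe set, on log2 axes, WT in blue and MADS29OX in red. *HSP18.0*, with dim probe sets, is not shown. For *HSFA2C* the probe set used is higher in MADS29OX leaves (23.8 to 50.6 against 13.0 to 14.3) and the other lower (7.81 to 16.9 against 21.9 to 30.5), whereas both *HSP18.6* probe sets are lower.

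*HSFA1*, whose tomato and Arabidopsis counterparts start the heat response, had 106.5, 96.6 and 95.8 in WT and 100.8, 87.6 and 82.0 in MADS29OX leaves, with overlap and a log2 fold change of -0.15 (95% interval from -0.41 to 0.11). *HSFA2E* had 126, 123 and 125 in WT and 104, 106 and 87.1 in MADS29OX leaves, without overlap, and a log2 fold change of -0.34 (adjusted p = 0.0588 from limma). Both intervals lie within 2-fold, that of *HSFA2E* from -0.59 to -0.09. *HSFA4B* (49.4 to 60.3 in WT and 46.0 to 62.2 in MADS29OX leaves, log2 fold change -0.10), *HSFA9*, whose Arabidopsis namesake is a seed factor (20.5 to 23.5 and 22.9 to 26.9, 0.19), and *HSFA5* (17.9 to 21.6 and 18.2 to 23.6, 0.09) also overlapped between groups. *HSFA3*, a gene that acts downstream of DREB2A in Arabidopsis, was below the floor in WT and reached 17.3 on 1 MADS29OX array. With no floor it was called higher (log2 fold change 1.17, adjusted p = 0.00910 from limma), from signals of 5.41 to 5.53 in WT and 9.46 to 17.3 in MADS29OX leaves that carry little information. *HSFA2A*, *HSFA2B*, *HSFA4D*, the gene of the spotted leaf mutant *spl7*, and *HSFA6B* were below the floor on all arrays. *HSFA6A*, *HSFB4C* and *HSFC2B* had no probe set of their own.

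MADS29OX replicate 1 stood apart from the other MADS29OX arrays in some of these genes. For 5 of the 23 members, *HSP24.1*, *HSP17.9A*, *HSP81-1*, *HSFB2A* and *HSFB2C*, its floored value was at least 2-fold above both other MADS29OX arrays. This was true of 43 of all 10045 tested genes, or 0.428%, so that members made up 11.6% of those 43 genes and 0.229% of the tested genes. The ratio of replicate 1 to replicates 2 and 3 was 9.11 and 11.4 for *HSP24.1*, 2.78 and 5.80 for *HSP17.9A*, and at least 3.72 and 3.98 for *HSFB2A*, whose replicate 3 lies below the floor. No member had replicate 2 at least 2-fold above both others (0 of 23), where 2.78% of all tested genes did, and 0 of 23 had replicate 3 so, where 0.657% did. Replicate 3 was at least 2-fold below both others in 2 of 23 members, *HSP17.9A* and *HSP18.6*, where 0.0996% of all tested genes were so, and the lowest of the 3 in 10 of 23 (43.5%, against 32.3% of all tested genes). For *HSFB2C* the order rests on the brightest probe set. The second probe set of *HSFB2A* had 21.95, 8.65 and 12.99 in MADS29OX leaves, less than 2-fold apart once floored. Replicate 1 was the highest of the 3 in 13 of 23 members (56.5%) and in 44.3% of all tested genes. Replicates 2 and 3 were the highest in 31.8% and 20.1% of all tested genes. Across all tested genes replicate 1 was not shifted much as an array, with a median log2 gap of 0.08 to the mean of the other 2, and of 0.21 over the members. This grouping was noticed in these values and is a description without a test. *HSP18.8* and *HSP17.9B* did not share it, with ratios of replicate 1 to replicates 2 and 3 of 1.09 and 0.914 and of 0.832 and 0.984. *HSFC2A* and *HSP101*, below the floor on all MADS29OX arrays, could not show it.

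**Figure D4:**
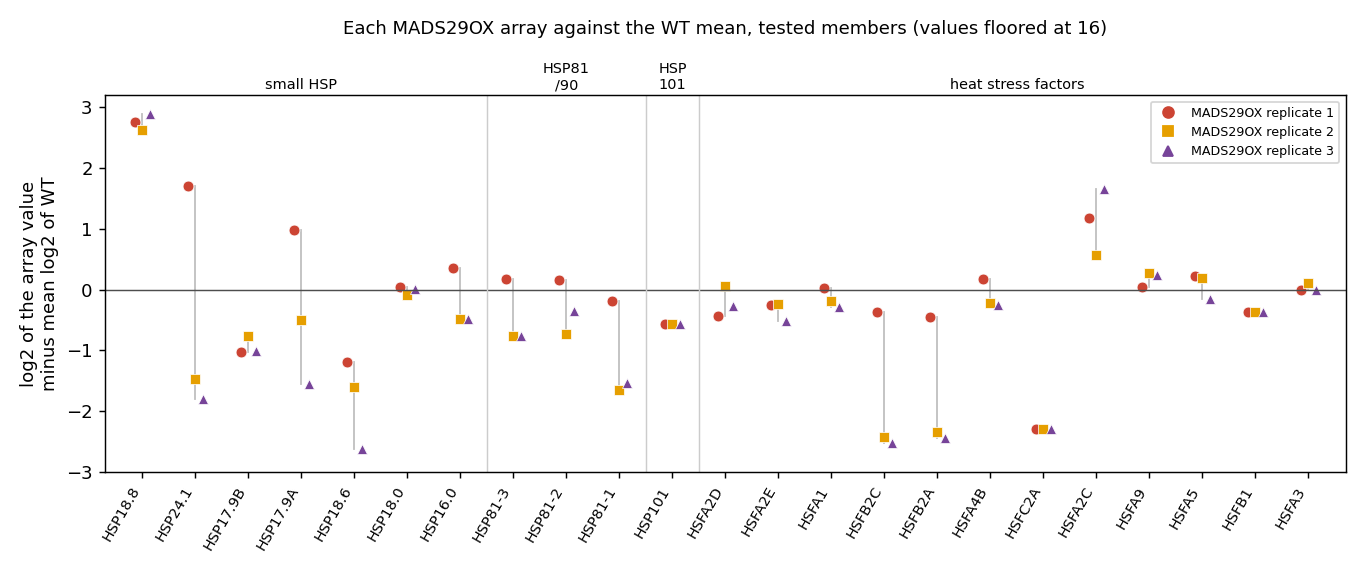
Log2 of each MADS29OX array minus the mean log2 of the WT arrays (values floored at 16) for the 23 tested members, with a symbol for each replicate and a line over their range. For *HSP24.1* replicate 1 stands at 1.71 and replicates 2 and 3 at -1.48 and -1.81, while all 3 lie between 2.63 and 2.89 for *HSP18.8*.

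Leaving out that array changed the calls. Without MADS29OX replicate 1, 6 members were lower, *HSFC2A*, *HSP18.6*, *HSP24.1* (log2 fold change -1.64, adjusted p = 0.00413), *HSP81-1* (-1.59, adjusted p = 0.000965), *HSFB2A* (-2.40, adjusted p = 0.000651) and *HSFB2C* (-2.48, adjusted p = 0.000651, all from limma), and 1, *HSP18.8*, was higher. In the same fit 5.2% of all tested genes were lower and 5.53% higher. This array is singled out here because of these same values. *HSP24.1*, *HSP81-1*, *HSFB2A* and *HSFB2C* were among the genes picked because replicate 1 was high, so lower values without it follow from that choice. For *HSFB2A* and *HSFB2C* the remaining MADS29OX arrays lie near or below the floor, which narrows their spread. The count of 6 is thus not read against these shares. Nothing in the labels sets replicate 1 apart from the other MADS29OX samples. Array weights let noisier arrays count for less, and were 0.294, 0.191 and 0.791 for MADS29OX replicates 1, 2 and 3 and 1.66 to 4.52 for the WT arrays, so replicate 2 counted least. They gave 6 lower and 2 higher members, where 6.02% and 6.03% of all tested genes were called. The 6 lower ones were *HSFC2A*, *HSP18.6*, *HSP81-1*, *HSFB2A*, *HSFB2C* and *HSP17.9B*.

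**Figure D5:**
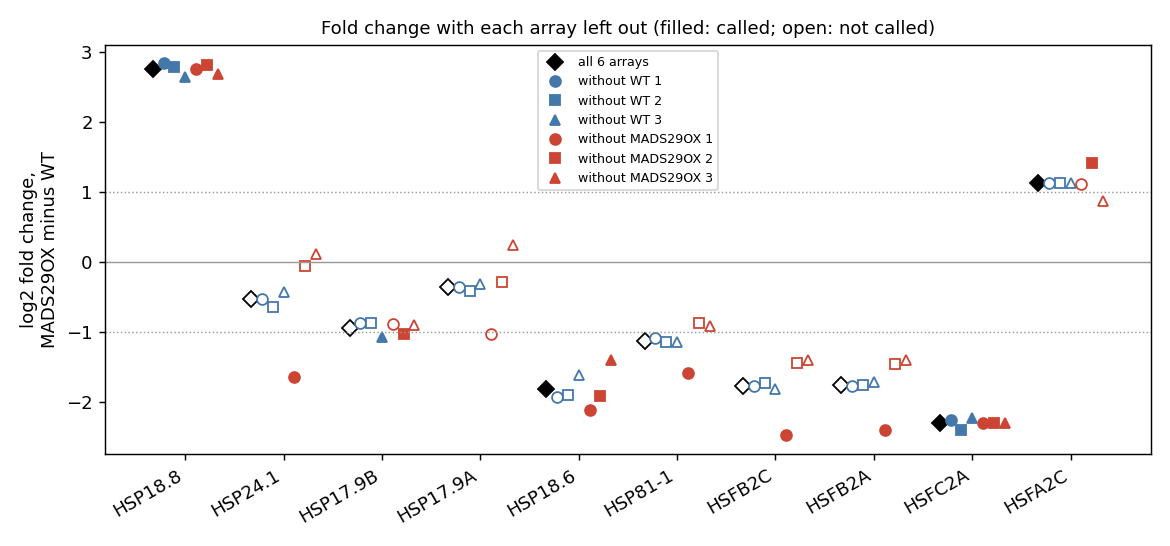
Log2 fold change (MADS29OX minus WT) of 10 members from all 6 arrays and with each array left out, filled where the gene was called. *HSP18.8* and *HSFC2A* are filled throughout, whereas *HSP24.1* goes from -1.64 without MADS29OX replicate 1 to 0.11 without MADS29OX replicate 3.

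Other genes of protein folding were described from a list of co-chaperones, Clp proteins, folding helpers of the endoplasmic reticulum and regulators of heat responses. Of 43 such genes 29 were tested, and 1 was higher and 1 lower, both among the 19 tested genes of the endoplasmic reticulum, where 5.05% of all tested genes were higher and 5.03% lower. Of the 9 tested co-chaperone and Clp genes 0 were called, with 4 past the adjusted p alone and 5 at an unadjusted p under 0.05 in limma, against 26.6% and 3911 of the 10045 tested genes, and the 1 tested heat response regulator was not called. *PDIL1-1*, a protein disulfide isomerase of the endoplasmic reticulum, had 132, 119 and 130.1 in WT and 572, 296 and 600.1 in MADS29OX leaves and rose 3.68-fold (adjusted p = 0.00664 from limma). *ERDJ3A*, a J-domain co-chaperone of the same compartment, had 43.9, 37.0 and 37.3 in WT and 22.6, 16.95 and 18.78 in MADS29OX leaves (log2 fold change -1.02, adjusted p = 0.00460 from limma). Both genes had groups that did not overlap.

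The median log2 fold change of the 29 genes was 0.06. *CLPC2*, a chloroplast Clp chaperone (0.97, adjusted p = 0.00628), *PDIL2-2* (0.96, adjusted p = 0.0253) and *DREB2B*, a regulator of heat and drought genes (0.66, adjusted p = 0.0360), passed the adjusted p below 2-fold, as did *DJA6*, a J-domain co-chaperone (-0.83, adjusted p = 0.0462 from limma), *SGT1*, a co-chaperone of HSP90 (-0.52, adjusted p = 0.0417), and the organelle ClpB gene *CLPB-M* (at least 1.45-fold lower, adjusted p = 0.0447). The signals of *SGT1* were 581, 545 and 566 in WT and 480, 350.1 and 365 in MADS29OX leaves. *CLPC1*, a further chloroplast Clp gene, was not called, at 1430, 1450 and 1529 in WT and 1860, 1840 and 1635 in MADS29OX leaves (0.27, adjusted p = 0.0681 from limma). *BIP1*, the HSP70 of the endoplasmic reticulum, named here after its values were seen, had 214, 231 and 233 in WT and 323, 171 and 293 in MADS29OX leaves, with a log2 fold change of 0.16 (95% interval from -0.44 to 0.77).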

How the data were processed

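RNA from leaves of 3 WT and 3 MADS29OX rice samples was hybridized to Affymetrix rice arrays. The deposited values are linear intensity values, 1 for each of 57381 probe sets per array, with array medians from 5.95 to 6.00. The normalization the authors used to make them is not given in the sources used here, and a scaling that differed from theirs could change dim probe sets most. Of the probe sets, 22436 were paired with 1 gene, 95 with several and 34727 with none in the platform annotation used here, and 123 controls were left out. Gene names, and which genes neighbour each other, came from a RefSeq gene table (assembly ASM3414082v1), whose coordinates served for nothing else.

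Values below 16 were raised to 16, and lmFit and eBayes of limma 3.58.1 (R 4.3.3) compared the groups on log2 values of the 14238 probe sets above 16 on at least 1 array, with Benjamini-Hochberg adjustment over all of them. The step was also run on simulated data, with results that are not given here, so that run stands as no check of the calls. Each gene was represented by the brightest of its probe sets, by the mean of the 6 arrays, so a called value rests on 1 probe set. Where all arrays of a group lay below 16, the fold is a lower bound. Such a group has no spread in the fit, so the SE and p do not measure its spread. The number of arrays limits the precision, and intervals are 95% intervals from the fit. Brightness served only to choose probe sets, to choose which related genes to name and in the sums over markers.

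The members, the lists and the tests were chosen with earlier results of these data known. All members were to be named. Of the related folding genes, those called, up to 6 with the lowest adjusted p and the 3 brightest without a call were to be named. Alternatives covered the floor, the filter, the normalization, the prior, array weights, probe set choice, a replicate block and leaving out each array.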

Additional observations from a re-analysis of the deposited data

How the results depend on the processing

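Of the 4 calls, those of *HSP18.8* (17 alternatives) and *HSFC2A* (18 alternatives) held under each one that gave them a value. For *HSFC2A*, leaving out a MADS29OX array could not move the fold change, since all of these arrays were at the floor. The call of *HSP18.6* was lost in 6 of 18 and that of *HSFA2C* in 9 of 17, and no log2 fold change that was called turned its sign. From 2 members higher and 2 lower, log2 of the value plus 16 gave 1 and 1, a mean of at least 32 gave 1 and 4, and no filter on dim probe sets gave 1 and 1. A floor of 32, leaving out probe sets that can cross-hybridize and averaging the probe sets of each gene each gave 1 higher, array weights gave 6 lower, and no fold limit gave 4 lower. Leaving out 1 array gave 1 to 2 higher and 1 to 6 lower, the 6 without MADS29OX replicate 1. The members' median log2 fold change of -0.34 ranged from -0.48 to -0.03, and was 0 with no filter on dim probe sets, where genes at the floor enter. Of the related genes, from 1 higher and 1 lower, the value plus 16 and no filter each gave 0 and 0, no floor gave 2 and 2, no fold limit gave 4 and 4, array weights gave 3 higher, and a floor of 32 and a mean of at least 32 each gave 0 lower. Leaving out 1 array gave 1 to 2 higher and 0 to 2 lower. The cause was not tested. With the replicate number as a block 1 member was lower, with *HSP18.6* lost (adjusted p = 0.0638 from limma). Same-numbered samples did not deviate together (correlations of 0.03, -0.05 and -0.13). With so few arrays this does not settle whether they share a batch, and the labels give them only the same number. Calls of dim genes such as *HSP101* and *HSFA3* depend on the floor. The planned descriptions of promoters and protein identity were not run, because no sequences were used here.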

Other observations

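A few other named genes were among the 43 with MADS29OX replicate 1 at least 2-fold above both other MADS29OX arrays. They were picked after their values were seen and stand for no group of the 43. *RAB21*, a dehydrin gene, had 9.79, 8.16 and 4.84 in WT and 1804, 242 and 401 in MADS29OX leaves, so that all 3 MADS29OX arrays were above WT. *P5CS2*, a gene of proline synthesis, had 11.9, 12.6 and 13.7 in WT and 63.7, 22.0 and 28.5 in MADS29OX leaves, again all above WT. *RAB16B*, a further dehydrin gene, had 7.04, 7.03 and 6.40 in WT and 309, 8.72 and 21.2 in MADS29OX leaves, with replicate 2 below the floor of 16. The dehydrin gene *LIP9* differed, with 140.6, 154.5 and 193.8 in WT and 227.3, 57.6 and 113.2 in MADS29OX leaves, so that replicates 2 and 3 were below WT. Others of the 43 were below WT on all MADS29OX arrays, such as LOC4327388, with 897.3, 824.5 and 913.7 in WT and 362.9, 136.0 and 89.55 in MADS29OX leaves.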
